A study of Mus musculus with 6 samples.

Results

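The neutrophil granule and myeloid progenitor genes described here are 9 genes, Elane, Mpo, Prtn3, Ctsg, Ngp, Camp, Ltf, S100a8 and S100a9, in bone marrow-derived macrophages (BMDMs) treated with zoledronic acid (ZA). They were taken by symbol from the 35432 genes whose values could be read in the deposited table, and all 9 were found. BMDMs are primary macrophages grown from mouse marrow in macrophage colony-stimulating factor, here from the femurs of C57BL/6 mice. ZA is a nitrogen-containing bisphosphonate that blocks farnesyl diphosphate synthase. RNA was sequenced from 3 untreated libraries (Ctrl) and from 3 libraries collected 12 h after ZA was added (ZA), all of one strain and without a transgene or knockout. The ZA concentration of these libraries and whether they came from separate animals are not given in the sources used here, so that p-values measure only the spread between these libraries, which may be technical. The 9 genes were chosen by their FPKM in these same libraries, as lower with ZA. Their ZA against Ctrl differences are therefore given as a description and without a test.

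Neutrophils build their granules in order while they mature in the marrow. Promyelocytes make the primary (azurophil) granules, which hold myeloperoxidase (Mpo) and the serine proteases neutrophil elastase (Elane), proteinase 3 (Prtn3) and cathepsin G (Ctsg), and whose messages also occur in granulocyte-monocyte progenitors. Myelocytes and metamyelocytes make the secondary granules with neutrophilic granule protein (Ngp), the cathelicidin antimicrobial peptide (Camp) and the iron-binding lactoferrin (Ltf). S100a8 and S100a9 encode the subunits of calprotectin, a calcium- and zinc-binding protein that fills the cytosol of neutrophils and is also made by monocytes.

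The level of each gene is given in FPKM, the number of fragments scaled by the length of the gene and the total of the library, which allows genes to be compared per length. Each library had between 41230600 and 42155808 fragments. The 9 genes together took between 0.00237% and 0.00387% of them, or 1001 to 1611 fragments a library. Their mean levels over the 6 libraries lay between 0.487 FPKM for Camp and 16.4 FPKM for S100a9. Lyz2, the lysozyme of macrophages and granulocytes, stood between 20472 and 24669 FPKM in the same libraries. A mean of at least 1 FPKM, the limit for testing used over the whole table, was reached by 6 of the 9 genes, and Ctsg, Camp and Ltf were below it. Counting sets the precision of such low values: Camp rested on 9 to 15 fragments a library, Ctsg on 28 to 50, and S100a9 on 292 to 504. At this depth 3 fragments of Elane correspond to 0.0783 FPKM.

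The names of these genes do not identify a cell in the culture. Ly6g, which defines mature mouse neutrophils, was listed at 0 in all 6 libraries, as were Stfa1, Stfa2 and Stfa3, the stefins of neutrophils, and Bpi of the primary granule. Aligner and annotation are not given, and whether a listed 0 means that no message was present was not tested. The chemokine receptor gene Cxcr2 stood between 0.0537 and 0.0924 FPKM, and Retnlg between 0 and 0.158 FPKM. The granulocyte regulators Cebpe and Gfi1 reached at most 0.557 and 0.0546 FPKM, and the progenitor gene Myb 0.172 FPKM. Other genes listed for these cells were not low. Of 18 mature neutrophil genes 12 were below 1 FPKM in every library, but Cxcr4 stood between 87.97 and 94.68 FPKM. Padi4 of that list stood between 3.877 and 4.245 FPKM. Of 16 granulocyte-monocyte progenitor genes 10 were below 1 FPKM in every library. Cebpa of that list stood between 80.64 and 87.8 FPKM and Csf2ra between 15.73 and 16.97 FPKM. Defining macrophage genes were present at high levels, with Adgre1, which encodes the F4/80 antigen, between 526 and 593 FPKM and Csf1r, the receptor for the growth factor of the culture, between 767 and 848 FPKM. In bulk libraries such as these, fewer cells of a type and less RNA per cell cannot be told apart.

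Among the primary granule genes, Elane, Mpo and Prtn3 were lower in each ZA library than in any Ctrl library, and Ctsg was not. Elane was measured at 2.35, 2.54 and 2.52 FPKM in Ctrl 1 to 3 and at 1.85, 2.06 and 1.70 FPKM in ZA 1 to 3. The Ctrl values lay close together and the highest ZA value was 0.283 FPKM below the lowest Ctrl value. Ctrl averaged 2.47 ± 0.106 FPKM against 1.87 ± 0.183 FPKM with ZA (SD, n = 3), which is 24.2% lower, or -0.40 as a log2 ratio of means.

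Mpo, the peroxidase that makes hypochlorous acid, was measured at 2.64, 2.61 and 2.28 FPKM in Ctrl and at 2.03, 1.53 and 1.53 FPKM in ZA. ZA 1 was the highest of its group and still 0.256 FPKM below Ctrl 3. Ctrl averaged 2.51 ± 0.196 and ZA 1.70 ± 0.289 FPKM (SD, n = 3), 32.5% lower in ZA. Prtn3, the elastase-like protease encoded beside Elane, was measured at 2.14, 2.47 and 2.14 FPKM in Ctrl and at 1.67, 1.53 and 1.39 FPKM in ZA. Its gap between the groups, 0.470 FPKM, was the widest among the primary granule genes, with means of 2.25 ± 0.190 and 1.53 ± 0.140 FPKM (SD, n = 3) and a level 32.1% lower in ZA.

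Ctsg, the chymotrypsin-like protease of the same granule, was measured at 1.20, 0.675 and 0.816 FPKM in Ctrl and at 0.802, 1.11 and 0.737 FPKM in ZA. The groups overlapped, with Ctrl 1 highest and Ctrl 2 lowest of the 6 libraries. Its means, 0.898 ± 0.273 and 0.882 ± 0.198 FPKM (SD, n = 3), differed by 1.69%, less than the spread within either group. Without Ctrl 1 the log2 ratio of Ctsg was 0.24, on the side opposite to the other primary granule genes.

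**Figure D1:**
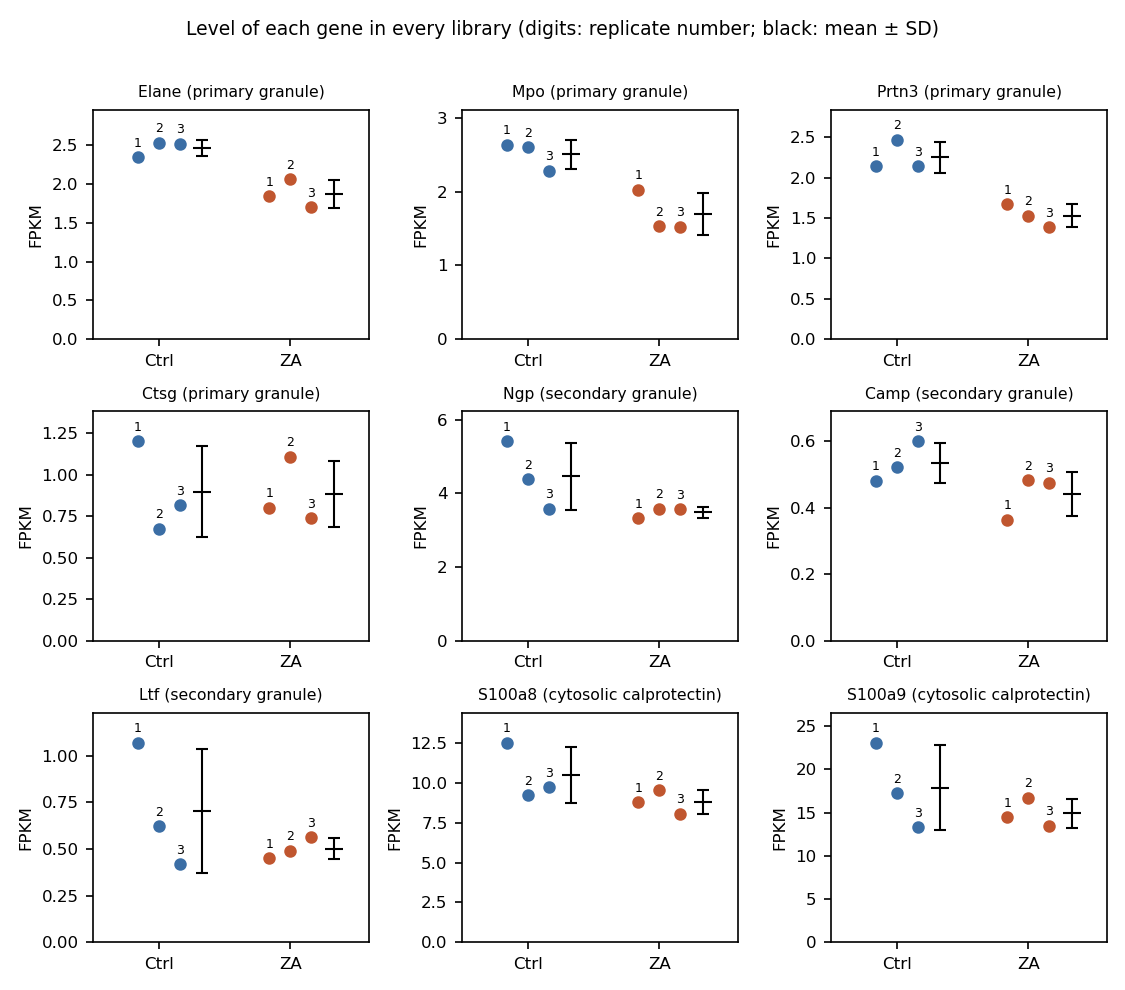
FPKM of each of the 9 genes in the 3 Ctrl (blue) and 3 ZA (orange) libraries, each panel on its own linear axis from 0; digits are replicate numbers, and black bars are the mean ± SD of 3 libraries. The ZA points of Elane, Mpo and Prtn3 lie below all Ctrl points, those of Ngp touch the lowest Ctrl point, and in the panels of Ctsg, Camp, Ltf, S100a8 and S100a9 the groups overlap.

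The primary granule genes are shown with the sequence before their start, since 3 of the 4 were lower together. Each line holds the 250 bases before the RefSeq start of the gene on build GRCm38.p6, for Elane at chr10:79886062-79886311, plus strand, for Prtn3 at chr10:79879417-79879666, plus strand, for Mpo at chr11:87793534-87793783, plus strand, and for Ctsg at chr14:56102575-56102824, minus strand. Capitals mark the letters AGGAAGT, an ETS core of the kind bound by PU.1, the factor of myeloid cells.
Elane: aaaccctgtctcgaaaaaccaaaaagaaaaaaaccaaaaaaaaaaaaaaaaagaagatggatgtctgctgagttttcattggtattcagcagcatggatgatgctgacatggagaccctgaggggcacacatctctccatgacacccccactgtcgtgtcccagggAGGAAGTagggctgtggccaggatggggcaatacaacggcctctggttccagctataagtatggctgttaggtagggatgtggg
Prtn3: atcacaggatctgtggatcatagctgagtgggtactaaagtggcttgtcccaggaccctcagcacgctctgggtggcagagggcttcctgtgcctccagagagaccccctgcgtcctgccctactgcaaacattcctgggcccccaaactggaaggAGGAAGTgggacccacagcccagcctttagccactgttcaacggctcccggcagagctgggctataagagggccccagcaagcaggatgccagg
Mpo: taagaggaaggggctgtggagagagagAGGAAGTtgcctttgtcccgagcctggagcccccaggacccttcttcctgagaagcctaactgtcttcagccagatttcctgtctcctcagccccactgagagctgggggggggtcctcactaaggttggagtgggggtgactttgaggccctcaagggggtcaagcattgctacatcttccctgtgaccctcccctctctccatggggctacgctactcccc
Ctsg: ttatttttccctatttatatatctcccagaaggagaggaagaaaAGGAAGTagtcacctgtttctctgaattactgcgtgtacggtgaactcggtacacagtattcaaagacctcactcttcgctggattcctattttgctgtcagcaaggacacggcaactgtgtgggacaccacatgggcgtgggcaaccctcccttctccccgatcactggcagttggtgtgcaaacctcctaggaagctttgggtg

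The letters AGGAAGT, searched on both strands, were found once in each of these 4 windows and once, as ACTTCCT, in that of S100a8, so that 5 of the 9 genes held them. Of 32851 such windows over all RefSeq genes 7.69% held them. The first base of the match lay 84 bases before the start in Elane, 94 in Prtn3, 223 in Mpo and 206 in Ctsg. Elane and Prtn3 also held AACGG, a MYB core, once each at 50 and 55 bases before the start, and 14.5% of all windows did. TTNNGNAA, a loose form of the C/EBP element, was found in Ngp, Ltf, S100a8 and S100a9, in 4 of the 9 genes, and in 36.8% of all windows. No match overlapped a match of another of these motifs. The motifs were chosen after the sequences had been seen, and a match is a description of the letters and not of binding. Ctsg held AGGAAGT as the other primary granule genes did, while its levels overlapped between the groups.

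Of the secondary granule genes, Ngp was lower in ZA by the narrowest margin, and Camp and Ltf overlapped. Ngp was measured at 5.42, 4.39 and 3.588 FPKM in Ctrl and at 3.32, 3.583 and 3.576 FPKM in ZA. The lowest Ctrl library and the highest ZA library differed by 0.00459 FPKM, and by 1 fragment, 174 against 173. The means were 4.47 ± 0.916 and 3.49 ± 0.149 FPKM (SD, n = 3), 21.8% lower in ZA.

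Ltf was measured at 1.07, 0.623 and 0.419 FPKM in Ctrl and at 0.451, 0.491 and 0.562 FPKM in ZA. Ctrl 1 held 2.05 times the mean of the other Ctrl libraries, and Ctrl 3 was the lowest of all 6. Its means were 0.703 ± 0.332 and 0.501 ± 0.0563 FPKM (SD, n = 3), a log2 ratio of -0.49 that became -0.05 without Ctrl 1. Camp, the precursor of the cathelicidin peptide, was measured at 0.481, 0.522 and 0.5995 FPKM in Ctrl and at 0.364, 0.482 and 0.475 FPKM in ZA. ZA 2 and Ctrl 1, with 12 fragments each, were nearly equal. A mean of 0.534 ± 0.0603 against 0.441 ± 0.0659 FPKM (SD, n = 3) was within reach of counting error, which alone gives an SD of 3.65 fragments at the 13.3 fragments of the Ctrl mean.

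The calprotectin genes were the most abundant of the 9, and both overlapped between the groups. S100a8 was measured at 12.5, 9.20 and 9.71 FPKM in Ctrl and at 8.79, 9.51 and 8.05 FPKM in ZA. Its means were 10.5 ± 1.77 and 8.78 ± 0.730 FPKM (SD, n = 3), and ZA 2 exceeded Ctrl 2. S100a9 was measured at 23.1, 17.3 and 13.3 FPKM in Ctrl and at 14.5, 16.8 and 13.5 FPKM in ZA. All ZA values lay inside the range of the Ctrl values. Its means were 17.9 ± 4.90 and 14.9 ± 1.67 FPKM (SD, n = 3), a log2 ratio of -0.26 that became -0.04 without Ctrl 1. Per length, S100a9 stood at 1.70 ± 0.282 times the level of S100a8 in Ctrl libraries and at 1.70 ± 0.0588 times with ZA (SD, n = 3).

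In all, 4 of the 9 genes, Elane, Mpo, Prtn3 and Ngp, did not overlap between the groups, all of them lower in ZA and all among the 6 genes above the limit for testing. Among the 9800 genes tested over the whole table, 6.76% were lower in ZA without overlap and 11.4% higher, and 0.367% passed an adjusted p of 0.05 in either direction with limma. Nothing is read from the first count, since the same difference chose the genes. The members just inside and just outside this line were Ngp and Camp, with gaps of 0.00459 and -0.000985 FPKM between the lowest Ctrl and the highest ZA library. On the scale used for testing, the difference in mean log2(FPKM + 1), which understates changes of genes this low, the 6 genes had a median of -0.27, and all tested genes had a median of 0.01. Log2 fold changes given below are on this scale unless voom or another pseudocount is named. For low genes they are not comparable with the log2 ratios of means.

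The sums of the classes differed in how they varied within Ctrl, and single genes did not all follow their class. Primary granule genes summed to 8.33, 8.29 and 7.76 FPKM in Ctrl and to 6.34, 6.23 and 5.36 FPKM in ZA, without overlap. Secondary granule genes summed to 6.96, 5.54 and 4.61 FPKM in Ctrl and to 4.14, 4.56 and 4.61 FPKM in ZA, and the 2 calprotectin genes to 35.6, 26.5 and 23.1 FPKM in Ctrl and 23.3, 26.3 and 21.5 FPKM in ZA. Ctrl 1 thus stood apart in the secondary granule and calprotectin sums and not in the primary granule sum. Ctrl 1 was the highest Ctrl library for 6 genes, Mpo, Ctsg, Ngp, Ltf, S100a8 and S100a9. It stood at 1.51 times the mean of the other Ctrl libraries for S100a9 and at 1.36 times for Ngp. For Elane and Prtn3 it stood at 0.928 and 0.930 times. Against their classes, it stood at 1.61 times for the primary granule gene Ctsg and at 0.857 times for the secondary granule gene Camp. Mpo was at 1.08 times.

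Fragments were also set against counting error, and here too the genes of a class differed. In Ctrl the SD of S100a9 was 5.40 times what counting alone gives, that of Ltf 4.23 times, that of Ngp 3.0 times and that of S100a8 2.21 times. For Elane and Prtn3 it was 0.415 and 0.785 times, so that their Ctrl libraries varied no more than counting allows. The other primary granule genes were higher, Mpo at 1.24 times and Ctsg at 1.86 times, and the secondary granule gene Camp stood at 0.418 times. In ZA the largest values were 2.15 times for Mpo and 1.95 times for S100a9. Leaving out each library in turn kept the log2 ratio of means of Elane between -0.48 and -0.34, of Mpo between -0.72 and -0.50, and of Prtn3 between -0.62 and -0.49. Without Ctrl 1, the ratio of Ngp moved from -0.35 to -0.19 and that of S100a8 from -0.25 to -0.11. Without Ctrl 3 it was -0.75 for Ltf and -0.44 for S100a9, and without ZA 1 it was -0.16 for Camp against -0.28 with all libraries.

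**Figure D2:**
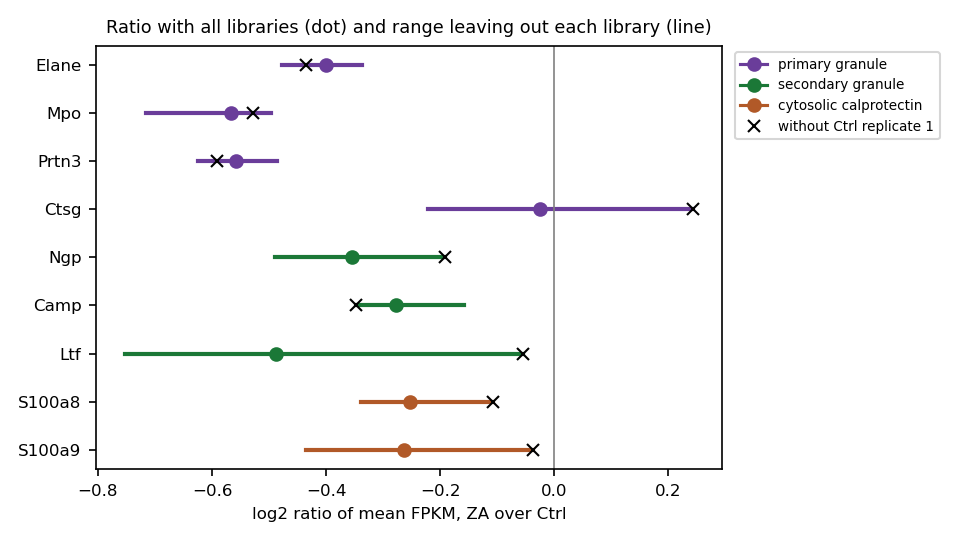
Log2 ratio of mean FPKM, ZA over Ctrl, for each of the 9 genes with all 6 libraries (dot), its range when each library is left out in turn (line), and its value without Ctrl replicate 1 (cross), coloured by class. Elane, Mpo and Prtn3 stay at or below -0.34, the crosses of Ltf and S100a9 lie at -0.05 and -0.04, and Ctsg crosses 0.

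Within Ctrl, some markers of other cells moved with some of these values. Among 9 stromal and endothelial genes, 7 were tested, none at 0. The 9 summed to 40.3, 31.8 and 24.2 FPKM in Ctrl 1 to 3 and to 29.7, 26.3 and 22.0 FPKM in ZA 1 to 3. In ZA the likeness was not seen. There the secondary granule sum was lowest in ZA 1, at 4.14 FPKM, and the calprotectin sum was highest in ZA 2, at 26.3 FPKM. Of the 7 stromal and endothelial genes tested, 2 were lower in ZA at an unadjusted p under 0.05 from limma, against 4.85% of all genes tested. They were Dcn, which encodes decorin, with a log2 fold change of -0.34 (SE 0.146, adjusted p = 0.398) and Cxcl12, the chemokine of marrow stroma, with -0.35 (SE 0.133, adjusted p = 0.341). The collagen genes Col1a1, Col1a2 and Col3a1 were also highest in Ctrl 1, Col1a1 with 5.37, 3.69 and 2.53 FPKM in Ctrl and 4.01, 3.46 and 2.26 FPKM in ZA. Kdr of the same list went the other way without overlap, between 3.54 and 3.61 FPKM in Ctrl and between 3.65 and 3.96 FPKM in ZA. Its log2 fold change was 0.06 (SE 0.0424, adjusted p = 0.621 with limma). Lum, too low to test, averaged 0.112 FPKM in Ctrl and 0.154 FPKM in ZA. The part of these cells in the values of the granule genes was not tested.

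The eosinophil list, which is not part of the rule, was also lower in sum. Of its 9 genes 4 were tested and 2 were lower at an unadjusted p under 0.05 with limma, against 4.85% of all genes tested. Prg2, which encodes the eosinophil major basic protein, was measured at 2.32, 2.10 and 2.11 FPKM in Ctrl and at 1.11, 1.59 and 1.34 FPKM in ZA. The groups did not overlap, and its log2 fold change was -0.44 (SE 0.0771, adjusted p = 0.0728 with limma), and -0.70 with voom on fragments. Ear2, an eosinophil ribonuclease with close paralogs among which reads may be split, was measured at 5.46, 5.24 and 4.15 FPKM in Ctrl and at 3.39, 3.43 and 3.05 FPKM in ZA. It did not overlap either, with a log2 fold change of -0.47 (SE 0.0851, adjusted p = 0.0785). Neither gene passed the adjustment over all 9800 genes in the main fit, which had all 6 libraries and no block on the replicate number. Ear2 did pass with limma without Ctrl 3, with an adjusted p of 0.0361. With all 6 libraries and a block on the replicate number its adjusted p from limma was 0.0268, the lowest of a range up to 0.284 over all alternatives. The defining eosinophil peroxidase Epx was at or below 0.0430 FPKM in every library, Il5ra at or below 0.00622 FPKM, and Siglecf had a log2 fold change of -0.04 (SE 0.0873, adjusted p = 0.899).

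**Figure D3:**
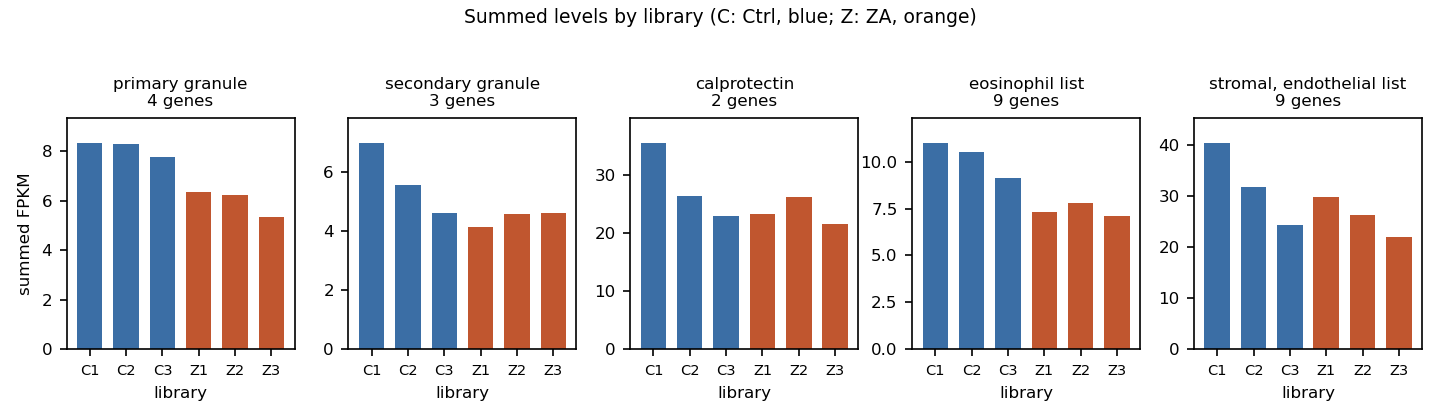
Summed FPKM in each library (C, Ctrl, blue; Z, ZA, orange) of the 4 primary granule, 3 secondary granule and 2 calprotectin genes and of the eosinophil and the stromal and endothelial lists of 9 genes each, with bars from 0 and a separate linear axis in each panel. The primary granule and eosinophil sums are lower in all ZA libraries than in any Ctrl library, while the secondary granule, calprotectin and stromal sums are highest in Ctrl 1 and overlap between the groups.

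Other genes of the same granules and cells were read from the comparison over the whole table. In 4 lists, of other primary granule, other secondary and tertiary granule, mature neutrophil and granulocyte-monocyte progenitor genes, 58 genes outside the 9 had values, and 34 of them were below 1 FPKM in every library. Of 23 tested, 3 were lower and 1 was higher in ZA at an unadjusted p under 0.05, against 4.85% and 7.5% of all genes tested. With limma on log2(FPKM + 1) 0 of the 23 passed an adjusted p of 0.05, against 16 lower (0.163%) and 20 higher (0.204%) over the whole table. With voom on fragments 0 of the 23 passed, against 132 of 9800 genes. The median log2 fold change of the 23 was -0.02.

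The 6 other primary granule genes tested had a median log2 fold change of -0.04, and 1 of them was lower at an unadjusted p under 0.05. This was Cd63, a tetraspanin of azurophil granule and lysosome membranes, at 718, 714 and 707 FPKM in Ctrl and 670, 695 and 676 FPKM in ZA, with a log2 fold change of -0.07 (SE 0.0208, adjusted p = 0.255). Ctsc, the dipeptidase that activates the granule proteases, had a log2 fold change of 0.07 (SE 0.0442, adjusted p = 0.550), and Srgn, the proteoglycan that packs them, -0.06 (SE 0.0412, adjusted p = 0.598). These genes are made by macrophages as well. Genes closer to promyelocytes were too low to test, Ms4a3 between 0.0238 and 0.333 FPKM and Prss57 between 0 and 0.0479 FPKM.

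The 5 other secondary and tertiary granule genes tested had a median of -0.15, and 2 were lower at an unadjusted p under 0.05. Hp, which encodes haptoglobin, was measured at 10.8, 10.1 and 6.23 FPKM in Ctrl and at 5.95, 6.53 and 5.86 FPKM in ZA, and Ctrl 3 lay among the ZA values. Its log2 fold change was -0.47 (SE 0.161, adjusted p = 0.303), and without Ctrl 3 it was -0.69 (adjusted p = 0.0157, within a range of 0.0157 to 0.572 over all alternatives). Adam8, a metalloprotease that macrophages also carry, was lower in each ZA library than in any Ctrl library, with a log2 fold change of -0.15 (SE 0.0411, adjusted p = 0.203). Lcn2, lipocalin of the same granule as Ltf, was measured at 2.62, 2.12 and 1.63 FPKM in Ctrl and at 2.13, 1.78 and 2.39 FPKM in ZA, with a log2 fold change of -0.0018 (SE 0.118, adjusted p = 0.999). Mmp9, gelatinase of the tertiary granule, was below the limit for testing and did not overlap, with 1.37, 0.969 and 0.851 FPKM in Ctrl and 0.817, 0.544 and 0.656 FPKM in ZA.

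Of 18 mature neutrophil genes 6 were tested, and 12 were below 1 FPKM in every library. Fpr1, the formyl peptide receptor, was higher at an unadjusted p under 0.05, with a log2 fold change of 0.36 (SE 0.153, adjusted p = 0.401). Its groups overlapped, and ZA 3 was the highest library with 7.01 FPKM against 3.94 FPKM in ZA 1. Csf3r, the receptor for granulocyte colony-stimulating factor, stood between 33.8 and 35.5 FPKM with a log2 fold change of 0.01 (SE 0.0281, adjusted p = 0.911). Of 16 granulocyte-monocyte progenitor genes 6 were tested, and 0 had an unadjusted p under 0.05 with limma. Kit, the stem cell factor receptor, stood between 1.57 and 1.94 FPKM with a log2 fold change of -0.02 (SE 0.0611, adjusted p = 0.930), and the nearest to the threshold was Sox4, with -0.17 (SE 0.0870, adjusted p = 0.478).

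**Figure D4:**
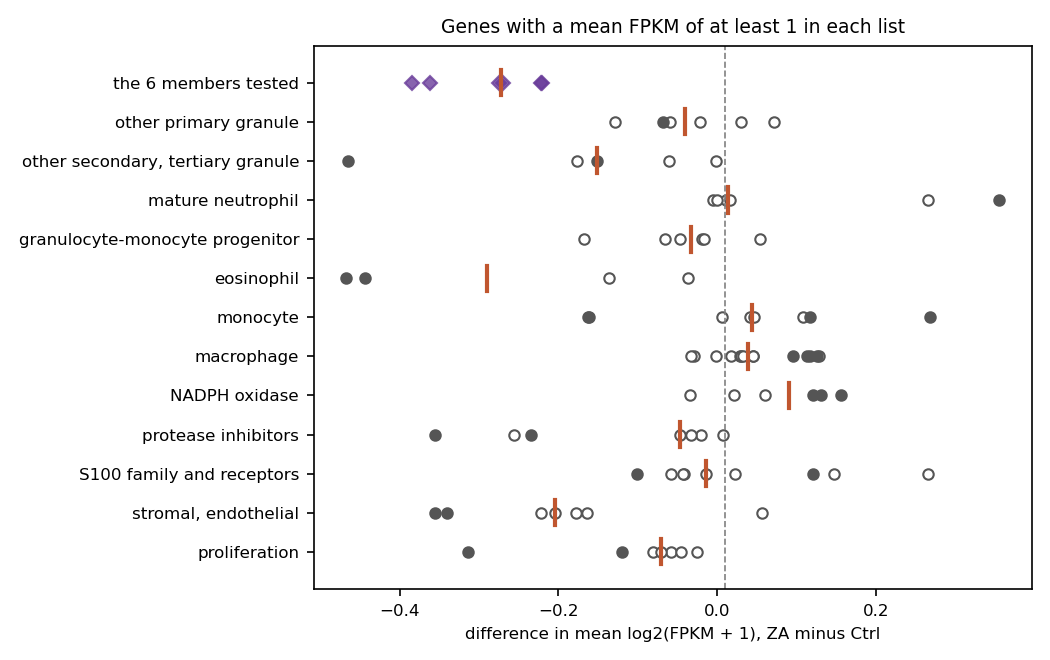
Difference in mean log2(FPKM + 1), ZA minus Ctrl, of genes with a mean of at least 1 FPKM in each list, one symbol per gene; filled circles have an unadjusted p under 0.05 from limma, open circles do not, diamonds are members and carry no test, orange bars are list medians and the dashed line is the median of all tested genes, 0.01. The members shown lie between -0.38 and -0.22 and had been chosen as lower, so that their difference is not tested. The medians of the 4 other granule, neutrophil and progenitor lists lie between -0.15 and 0.01.

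Genes that act with the members were also read. The NADPH oxidase is the complex that supplies Mpo with hydrogen peroxide and that macrophages share with neutrophils. Of its 6 genes, 3 were higher at an unadjusted p under 0.05 and 0 were lower, against 7.5% and 4.85% of all genes tested. Ncf1 had a log2 fold change of 0.12 (SE 0.0228, adjusted p = 0.0884), Cybb 0.16 (SE 0.0347, adjusted p = 0.113) and Ncf4 0.13 (SE 0.0384, adjusted p = 0.236). Cyba went the other way, lower in each ZA library than in any Ctrl library. Its log2 fold change was -0.03 (SE 0.0183, adjusted p = 0.483 with limma). With voom on fragments Ncf1 and Cybb passed, with adjusted p = 0.0267 and 0.0272, the lowest of ranges that reached 0.287 and 0.350 over all alternatives. Of 7 tested inhibitors of proteases 2 were lower at an unadjusted p under 0.05, Slpi, the secreted inhibitor of elastase and cathepsin G, with -0.36 (SE 0.153, adjusted p = 0.400) and Serpina3g with -0.23 (SE 0.0880, adjusted p = 0.342).

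Among 9 tested genes of the S100 family and calprotectin receptors, 1 was higher and 1 lower at an unadjusted p under 0.05. The shares over all genes tested were 7.5% and 4.85%. S100a10 had a log2 fold change of 0.12 (SE 0.0227, adjusted p = 0.0880) and S100a1 -0.10 (SE 0.0291, adjusted p = 0.224). Tlr4, a receptor for calprotectin, had a log2 fold change of 0.02 (SE 0.0323, adjusted p = 0.823). None of these 3 genes passed the adjustment over all genes tested with limma.

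The genes most like the members were sought by the root mean squared difference over the 6 libraries between a gene's log2(FPKM + 1), centred on its own mean, and the mean profile of the 6 members tested. That profile was 0.28, 0.14 and 0.01 in Ctrl 1 to 3 and -0.12, -0.09 and -0.22 in ZA 1 to 3. The 5 nearest genes were Ly6g6f (0.0419), Tnfrsf12a (0.0438), Rcn3 (0.0441), Tubb6 (0.0456) and Vcl (0.0456), none of them a granule gene. Tubb6 encodes a tubulin and Vcl the adhesion protein vinculin, and Vcl was measured at 13.4, 12.8 and 11.9 FPKM in Ctrl and at 10.9, 10.2 and 9.68 FPKM in ZA. Since these genes were picked for a profile that is lower in ZA, their differences are not tested here.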

How the data were processed

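RNA of 6 BMDM libraries, 3 Ctrl and 3 ZA, was sequenced as 150 bp paired-end reads. The authors deposited 1 table of FPKM values. Aligner, counting program and annotation are not given in the sources used here, and the submitters' processing notes name only the build mm9. Of its 35434 rows 11 kept their separators. The rest were split by how the numbers are written and by the rule that FPKM times gene length and library total is a whole number of fragments. This restored 35432 rows and the fragments behind them, and left out 2. The 11 intact rows came back identical, as did all 5000 simulated rows. The simulated rows were drawn from restored rows and written by the rules used for splitting, so that they cannot show whether those rules hold.

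The 9800 genes whose mean reached 1 FPKM entered a two-sided limma fit (version 3.58.1, R 4.3.3, eBayes with a trend) of log2(FPKM + 1), with Benjamini-Hochberg adjustment over all of them. The script was tested on simulated data. Tables and figures were made with Python 3.11.15, NumPy 2.4.6, pandas 2.3.3 and Matplotlib 3.10.9. The 9 genes and all lists were chosen with earlier results of these data known. Named from each list are its first 3 genes and up to 3 tested genes of smallest p, in the text only where they add a value, and Lyz2, Mmp9, Stfa1 to Stfa3, Il5ra, Siglecf, Kit, Tlr4, S100a6, Pax5, Tpsb2 and Cma1 were added after their values were seen. So were Cebpa, Csf2ra, Cxcr4, Padi4, Kdr and Lum. Promoter windows are from RefSeq on GRCm38.p6, where all 9 genes matched by symbol. Alternatives were a pseudocount of 0.1, no filter or a mean of 5 FPKM, median centring, quantile normalization, no variance trend, the replicate block, voom on fragments, and leaving out each library. Counting SDs are square roots of mean fragments and cover counting error only.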

Additional observations from a re-analysis of the deposited data

How the results depend on the processing

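Of the 104 alternative log2 fold changes of the 9 genes, 94 moved by less than the spread between replicates, 7 moved by more and 3 changed sign. The 7 were more negative values of Elane, Mpo, Prtn3 and Camp with a pseudocount of 0.1 or voom on fragments, for instance -0.55 and -0.58 for Mpo against -0.38, since a pseudocount of 1 shrinks genes this low. The 3 were Ctsg, at 0.11 without Ctrl replicate 1, 0.02 without ZA replicate 1 and 0.05 without ZA replicate 3, within a range of -0.092 to 0.11 over the left-out libraries. Leaving out each library gave 4 to 6 of the 9 genes without overlap. Removing a library can only keep or raise this count, so nothing is read from it. Median centring and quantile normalization gave 4 each. Over all genes, 36 had an adjusted p under 0.05, against 1 with no filter, 20 with quantile normalization, 1 with a variance prior without a trend, 132 with voom, and 0 to 25 when a library was left out (0 without ZA 2, 1 without Ctrl 1 or Ctrl 2, 4 without ZA 3, 6 without Ctrl 3). Genes lower at an unadjusted p under 0.05 were 475, and 778 with no filter, when 19378 genes were tested. The 3 other granule and progenitor genes lower at that p were 2 to 4 under all 14 alternatives. The 1 higher, Fpr1, was 0 with no filter, with median centring, with quantile normalization and without the variance trend, and 0 to 3 when a library was left out. It was also 0 with a filter of a mean FPKM of 5, where Fpr1 was too low to enter the fit. The cause of the other shifts in these counts was not tested.

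Same-numbered libraries deviated together with correlations across genes of 0.284, 0.0393 and 0.280, so that the numbers were not taken as pairs, although all 6 libraries correlated best with their own number, a hint from the data and not from the design. Blocking on that number gave 78 genes past an adjusted p of 0.05, 32 of them among the 36 without the block, and 2 of the other granule and progenitor genes were higher at an unadjusted p under 0.05. Of the tested list genes named, Ear2 (adjusted p = 0.0268) and Slpi (adjusted p = 0.0350) passed with limma under the block and not without it, within ranges of 0.0268 to 0.284 and 0.0350 to 0.667 over all alternatives. Depth limits Camp and Ctsg most, with at most 15 and 50 fragments a library.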

Other observations

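Genes of other marrow cells were at differing levels. The B cell gene Pax5 reached at most 0.0262 FPKM and the T cell gene Cd3e 0.0793 FPKM, and the mast cell genes Tpsb2 and Cma1 were listed at 0. Other genes of the mast cell and basophil list had values. Prss34 stood between 0.940 and 1.75 FPKM, Mcpt8 between 0.42 and 0.63 FPKM and Cpa3 between 0.29 and 0.46 FPKM. Cd79b, a chain of the B cell receptor complex, stood between 1.72 and 2.55 FPKM, and the co-receptor gene Cd4, which is not limited to T cells, between 8.10 and 9.62 FPKM. The hemoglobin gene Hba-a1, which has a near-identical copy, was measured at 2.40, 2.54 and 0.343 FPKM in Ctrl and at 1.82, 0.817 and 0.764 FPKM in ZA, with Ctrl 3 the lowest of the 6 libraries. Of these 4 lists 5 genes were tested and 0 passed an unadjusted p of 0.05 with limma.

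Of 14 macrophage genes, all tested, 4 had an unadjusted p under 0.05 on the higher side and 0 on the lower. The shares over all genes tested were 7.5% and 4.85%. Csf1r had a log2 fold change of 0.11 (SE 0.0194, adjusted p = 0.0701) and Adgre1 0.13 (SE 0.0229, adjusted p = 0.0785), without overlap between the groups. Of 8 monocyte genes tested 2 were higher and 1 lower at an unadjusted p under 0.05, against the same shares over all genes. Cd14 is in both lists and was among the higher genes of each, so that the 2 counts are not separate. Ccr2, the receptor for the chemokine that draws monocytes from the marrow, was higher, with a log2 fold change of 0.27 (SE 0.0537, adjusted p = 0.0948) and F13a1 lower, with -0.16 (SE 0.0522, adjusted p = 0.265). Of 7 proliferation genes tested, 2 were lower at an unadjusted p under 0.05, against 4.85% of all genes tested, Ccna2 with -0.31 (SE 0.0671, adjusted p = 0.110) and Top2a with -0.12 (SE 0.0474, adjusted p = 0.362), and all 7 had a negative log2 fold change, as did 43.1% of all genes tested. No gene of these lists passed the adjustment with limma on log2(FPKM + 1). With voom on fragments Csf1r, Adgre1 and Ccr2 did, with adjusted p = 0.00878, 0.0114 and 0.0256, the lowest of ranges that reached 0.272, 0.287 and 0.310 over all alternatives. The difference between lists was not tested. S100a6, a neighbour of S100a4 in the S100 cluster, was at or below 0.245 FPKM in every library while S100a4 stood between 310 and 386 FPKM. Aligner and annotation are not given, and whether this low value means that little S100a6 message was present was not tested.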
